A study of Mus musculus with 8 samples.

Results

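Mitochondrial complex I (NADH:ubiquinone oxidoreductase) is described here through its nuclear-encoded subunits, 36 genes whose symbols begin with Nduf, in C2C12 myotubes with and without knockdown of the histone variant macroH2A1.1. The members were taken by name alone, as every non-control probe that the array files list under one of the 36 symbols, and the separate complex I assembly factors were left out. That gave 47 probes of 55681 on the array, and 36 genes of 23962 named on it. All 47 probes cleared the background filter, which asks for a signal well above background on every array of 1 group or the other, so all 36 genes were tested, each on its probe of highest mean signal. C2C12 is an established mouse myoblast line that fuses into myotubes when growth factors are withdrawn. The cells were harvested at day 4 of differentiation after transfection with a control siRNA (4 samples) or a macroH2A1.1 siRNA (4 samples), and the series describes the samples as biological replicates. One label names the treatment as a knockout, while the sample titles and the design name an siRNA, and the samples are called by the siRNA here. By its title, the study asks how the variant bears on respiration and on the use of NAD+ in the nucleus. RNA was labelled with 1 dye and read on 1-colour Agilent arrays.

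Complex I takes electrons from NADH, passes them along a chain of iron-sulfur clusters to ubiquinone, and pumps protons across the inner mitochondrial membrane. It is built from modules. The N module at the tip of the matrix arm binds and oxidises NADH, the Q module below it reduces ubiquinone, and the P module in the membrane pumps protons, with a proximal part beside the matrix arm and a distal part away from it. The central membrane subunits that form the proton channels are encoded by mitochondrial DNA, and the nuclear genes supply the catalytic subunits of the matrix arm and many accessory subunits around the core. By module the 36 members were 10 N genes, 5 Q genes, 9 proximal P genes and 11 distal P genes. The remaining gene, Ndufa4, was first assigned to complex I and is now placed with complex IV.

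The targeted gene was lower in the samples labelled as knockdown. All 3 probes of Macroh2a1, which encodes macroH2A1.1, were lower in all 4 knockdown samples than in any control. The differences were -0.99, -1.42 and -1.11 on the log2 scale. The limma adjusted p was 0.0232, 0.0335 and 0.0232 with the block described below, and 0.0538, 0.138 and 0.0538 without it. Which transcript forms of Macroh2a1 these probes read was not annotated. The values are therefore for the gene, and a change of macroH2A1.1 alone was not tested. Of 59305 spots on each array, 46.9% to 49.8% were well above background, 0 were saturated and 143 to 236 were flagged as outliers, the most on knockdown replicate 2, which also holds a dark area described with Ndufa6 below. With 4 arrays a group, the number of arrays limits the precision.

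Most of these genes read slightly higher with macroH2A1.1 siRNA, by amounts that were small for any single gene. Of the 36 members, 34 had a difference above 0, against 50% of all 13785 genes tested. The median difference was 0.19 on the log2 scale, a fold of 1.14, against -2.9e-05 over all genes. Taken within same-numbered pairs of samples, 24 of 36 members were higher in all 4 pairs, against 19.4% of all genes. The 4 pair medians over the members were 0.30, 0.14, 0.14 and 0.14, so the first pair differed most. For each gene the level in a sample was then set against that gene's mean over all samples, and the median over the 36 genes was taken. It was -0.13, -0.08, -0.02 and -0.15 in control replicates 1 to 4 and 0.17, 0.04, 0.12 and 0.01 in macroH2A1.1 siRNA replicates 1 to 4. Every knockdown sample thus lay above every control sample.

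No single member passed the threshold when samples were compared without pairing. In the limma fit over all genes (adjusted p under 0.05, Benjamini-Hochberg), 0 of 36 members were called, against 3 of 13785 genes or 0.0218%. At an unadjusted p under 0.05 there were 12 members higher and 0 lower, where 6.3% of all genes were higher and 5.77% lower. Samples with the same replicate number deviated together, so the fit with that number as a block is given wherever it changes a call. With the block 2 members rose, Ndufv2 and Ndufb8, and 0 fell, against 4.1% of all genes rising and 3.87% falling. The groups did not overlap for 12 members on the higher side and for 1 member, Ndufb2, on the lower side, against 4.27% and 3.7% of all genes.

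The probes behind the members that stand out are shown because each value below is the signal of a short oligonucleotide at 1 place in a transcript. Each is written 5′ to 3′ in lower case and taken from the array files, with mm9 coordinates. The Ndufb8 probe is on the minus strand of chromosome 19, where its 60 bases span chr19:44624855-44627199 and therefore cross an intron. The Ndufa6 probe is on the minus strand at chr15:82181444-82181503. For Ndufv2 the first 30 bases are given of the probe on the minus strand at chr17:66428794-66428853. For Ndufb2 the 30 bases are those that its 2 probes share, on the plus strand, in probes at chr6:39548336-39549425 and chr6:39549396-39549455.
Ndufb8: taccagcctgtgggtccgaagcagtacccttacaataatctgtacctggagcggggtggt
Ndufa6: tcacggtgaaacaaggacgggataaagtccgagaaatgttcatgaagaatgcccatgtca
Ndufv2: gtgtgcaagcaggcctttaacttgtattca
Ndufb2: aggtgagacatttcaagaaattacagactt

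All levels below are log2 signal relative to the 75th percentile of the array, and all differences are macroH2A1.1 siRNA minus control on that scale. A level depends on the probe, so differences and not levels are set against each other between genes.

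**Figure D1:**
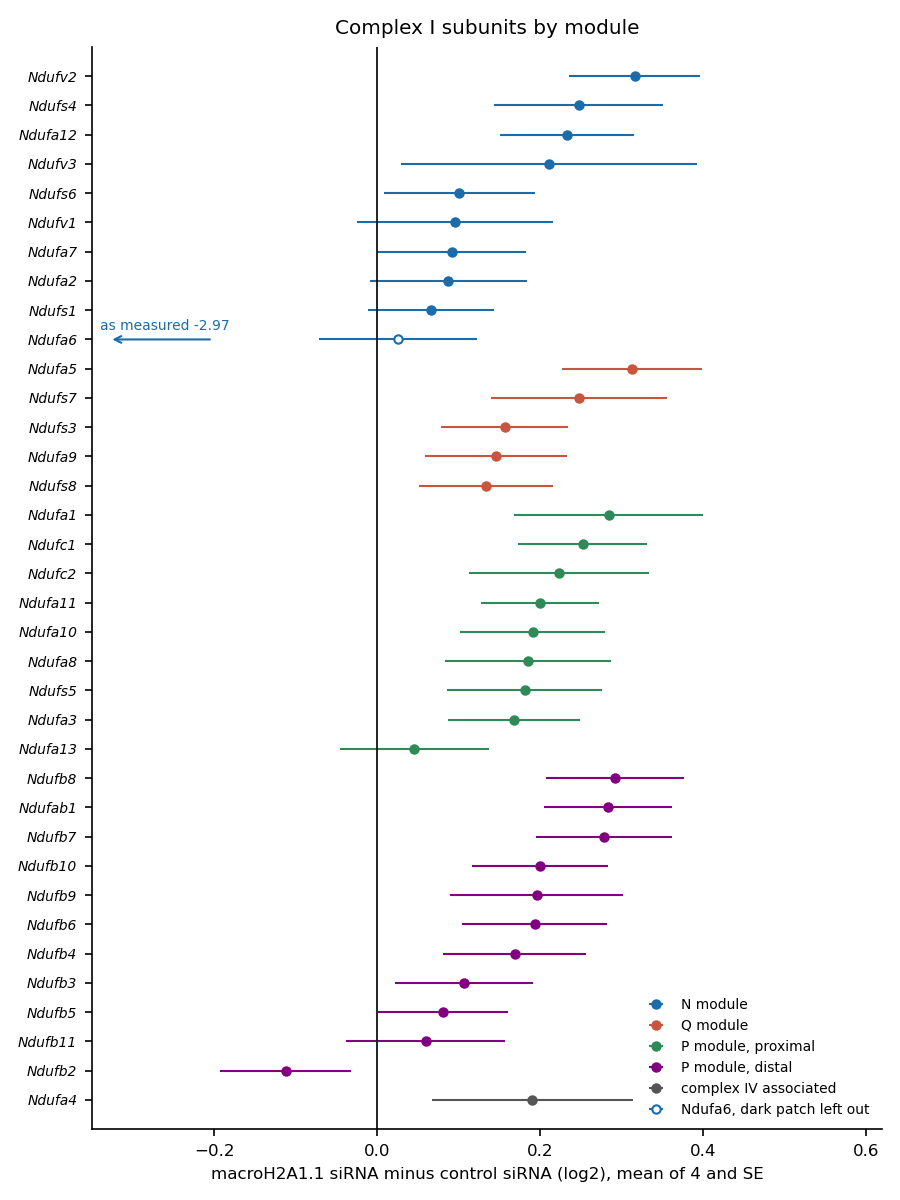
Difference between macroH2A1.1 siRNA and control siRNA for the 36 members (log2, x axis), ordered by module, as the mean of 4 samples against 4 with the SE of the limma fit without pairing. Ndufa6 was -2.97 as measured, off the axis, and is drawn as an open point at 0.03 with a dark area of 1 array left out. Of the other 35, Ndufb2 alone lies below 0.

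The N module had a median difference of 0.10 over its 10 genes, of which 9 read above 0 and 4 were higher in all 4 pairs. Ndufv2, an iron-sulfur subunit at the NADH-binding tip, read 5.14, 5.15, 5.27 and 5.09 in control replicates 1 to 4 and 5.57, 5.52, 5.44 and 5.40 in the knockdown replicates. The groups did not overlap, and the difference was the highest of all members at 0.32 (SE 0.08), a fold of 1.25. Ndufv2 did not pass limma without pairing (adjusted p = 0.195) and rose with the replicate block (paired SE 0.07, limma adjusted p = 0.0493). Its partner Ndufv1, which carries the flavin and the NADH site, read 6.61 ± 0.21 (SD, n = 4) in controls and 6.70 ± 0.10 (SD, n = 4) in knockdown cells, a difference of 0.10 (SE 0.12). Ndufs1, the large iron-sulfur subunit of the module, differed by 0.07 (SE 0.08). Both Ndufv1 and Ndufs1 were higher in 3 of 4 pairs and lower in pair 3.

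Among the accessory N genes, Ndufa12 was also separated. It read 6.14, 6.16, 6.29 and 6.19 in controls and 6.41, 6.44 and 6.44 in knockdown replicates 1, 3 and 4. Replicate 2 was flagged as an outlier by the scanner software and entered the fit as missing. The difference was 0.23 (SE 0.08). Ndufs4, an accessory subunit between the N and Q modules, was higher by 0.25 (SE 0.10) and higher in every pair, with groups that overlapped. Ndufv3 read 6.60, 7.26, 6.77 and 6.51 in controls and 7.01, 7.28, 6.93 and 6.76 in knockdown cells. Its groups overlapped, replicate 2 was the highest in both, and within pairs the differences were 0.41, 0.02, 0.16 and 0.25. Ndufs6, Ndufa7 and Ndufa2 differed by 0.10, 0.09 and 0.09, each with overlapping groups.

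Ndufa6 was the low outlier of the whole set. This small N module subunit, which holds an acyl carrier protein, read 5.55, 5.64, 5.83 and 5.65 in controls and 5.67, -6.29, 5.71 and 5.70 in knockdown replicates 1 to 4. Knockdown replicate 2 alone was low, and the other knockdown samples lay within the control range. The fitted difference was -2.97 with an SE of 2.55 (limma adjusted p = 0.726). In raw terms the spot of replicate 2 had a mean signal of 17.6 with a local background of 19, where the other 7 arrays gave 12250 to 14404. The scanner software did not flag it as an outlier and recorded it as not well above background.

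That spot lies in a dark area of the array. On knockdown replicate 2, 323 spots had a raw mean signal under 25, all of them within rows 1 to 69 and columns 144 to 164, and the other arrays had 0 to 29 such spots. Of the 48 spots around the Ndufa6 spot, 19 were that dark. The Ndufa12 spot that was set missing had 18 dark neighbours of 48 and a raw mean signal of 4941 against 18543 to 22382 on the other arrays. A second probe of Ndufb5 had 12 dark neighbours of 48. With spots left out wherever over 10% of the surrounding window was dark, a step added after these values were seen, Ndufa6 differed by 0.03 (SE 0.10, limma adjusted p = 0.955). The mean over all 36 members was then 0.17 in place of 0.09, the median was 0.19 both ways, and 35 members read above 0 in place of 34. The members that rose with the block were then 4 in place of 2, as Ndufs7 and Ndufab1 joined Ndufv2 and Ndufb8 (limma adjusted p = 0.04988 and 0.04997 for the added genes, just under the threshold). The share of all genes called in that run is not given, so the 4 are not set against it. The value that the authors deposited for Ndufa6 on this array is also low, at 5.79 against 13.58 to 13.81 on the others.

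**Figure D2:**
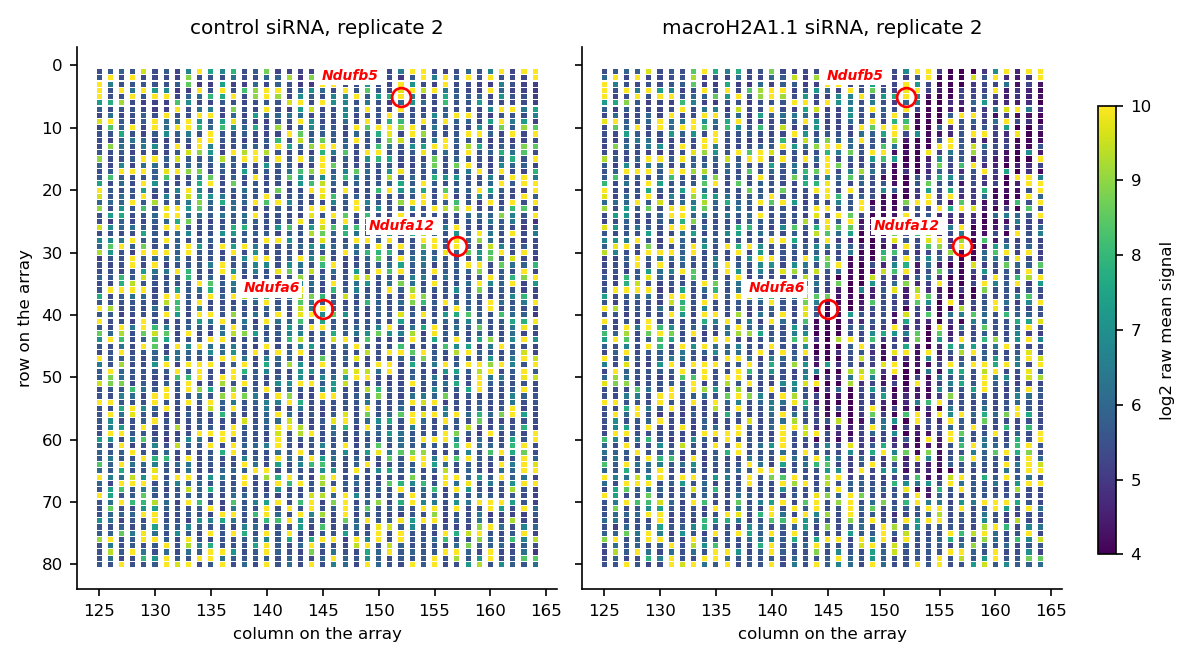
Raw mean signal (log2, colour) of the spots in 1 corner of 2 arrays (axes in rows and columns of spots), control replicate 2 and macroH2A1.1 siRNA replicate 2, with the spots of member probes circled in red. The dark area runs through the spots of Ndufa6 and Ndufa12 on the knockdown array and is not seen at these positions on the control array.

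The Q module, where electrons leave for ubiquinone, had a median of 0.16 over 5 genes. All 5 read above 0, 4 were higher in all 4 pairs and 0 passed with or without the block. Ndufa5, an accessory subunit of this module, read 6.14, 6.22, 6.19 and 6.10 in controls and 6.55, 6.36, 6.60 and 6.39 in knockdown cells. The groups did not overlap, and the difference was 0.31 (SE 0.09). In limma it had an adjusted p of 0.220, or 0.0567 with the block. The other Ndufa5 probe, which shares no more than 5 bases in a row with the first, gave 0.29. Among the core subunits, Ndufs7, which holds the last iron-sulfur cluster before ubiquinone, differed by 0.25 (SE 0.11), with pair differences of 0.27, 0.26, 0.20 and 0.26. Those 4 pair values lie close together, and its limma adjusted p with the block was 0.0524, just above the threshold.

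Ndufs3, a core subunit of the Q module, read 6.15, 6.21, 6.22 and 6.09 in controls and 6.41, 6.37, 6.30 and 6.23 in knockdown cells. Ndufa9 read 4.26, 4.16, 4.27 and 4.21 in controls and 4.55, 4.30, 4.28 and 4.35 in knockdown cells. Neither gene's groups overlapped, at differences of 0.16 (SE 0.08) and 0.15 (SE 0.09), and for Ndufa9 the nearest samples of the groups were 0.0045 apart, both of replicate 3. Ndufs8, a core iron-sulfur subunit, read 3.82, 3.76, 3.98 and 3.76 in controls and 4.03, 3.98, 3.94 and 3.90 in knockdown cells. Its groups overlapped through control replicate 3, and the difference was 0.13 (SE 0.08).

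The proximal P module had a median of 0.19 over 9 genes, all above 0, and 8 of 9 were higher in all 4 pairs. Ndufc1 read 5.81, 5.95, 5.78 and 5.78 in controls and 6.15, 6.09, 6.10 and 5.99 in knockdown cells. The accessory membrane subunit Ndufa11 read 3.81, 3.90, 3.93 and 3.88 in controls and 4.11, 4.07, 4.13 and 4.01 in knockdown cells. Ndufa3 read 5.60, 5.71, 5.70 and 5.53 in controls and 5.89, 5.72, 5.80 and 5.79 in knockdown cells. In all 3 genes the groups did not overlap, with differences of 0.25 (SE 0.08), 0.20 (SE 0.07) and 0.17 (SE 0.08), and none passed with or without the block.

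Ndufa1, a small subunit with a single membrane helix, had a difference of 0.28 (SE 0.12) whose groups overlapped, as knockdown replicate 4 lay at 5.85 between the controls. Ndufa8, a subunit of the intermembrane space side, read 3.89, 4.06, 4.01 and 3.94 in controls and 4.20, 4.38, 4.03 and 4.03 in knockdown cells. Its first 2 pairs differed by 0.31 each and the other 2 by 0.02 and 0.10, so the difference of 0.19 (SE 0.10) was carried more by the first 2. Ndufc2, Ndufa10 and Ndufs5 differed by 0.22, 0.19 and 0.18. Ndufa13, also known as GRIM-19, read 7.81, 7.86, 8.02 and 7.81 in controls and 7.96, 7.78, 8.04 and 7.91 in knockdown cells. Its groups overlapped widely, and its difference of 0.05 (SE 0.09) was the lowest of the module.

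The distal P module had a median of 0.19 over 11 genes, with 10 above 0 and 7 higher in all 4 pairs. Ndufb8, an accessory subunit whose protein is often used to gauge assembled complex I, read 6.75, 6.87, 6.79 and 6.68 in controls and 7.12, 7.16, 7.04 and 6.93 in knockdown cells. The groups did not overlap and the difference was 0.29 (SE 0.09), a fold of 1.22. Ndufb8 did not pass limma without pairing (adjusted p = 0.245) and rose with the block (paired SE 0.06, limma adjusted p = 0.0427). Both calls with the block were lost when any 1 of the 4 pairs was left out, where the limma adjusted p was 0.0787 to 0.160 for Ndufb8 and 0.0984 to 0.176 for Ndufv2. Over all settings tried, paired or not, the limma adjusted p ran from 0.0083 to 0.483 for Ndufb8 and from 0.0088 to 0.429 for Ndufv2. With 1 pair out the differences were 0.27 to 0.31 for Ndufb8 and 0.28 to 0.37 for Ndufv2.

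Ndufab1, the mitochondrial acyl carrier protein, read 5.61, 5.66, 5.77 and 5.62 in controls and 6.01, 5.99, 5.97 and 5.84 in knockdown cells. Ndufb7, a subunit on the intermembrane space side, read 6.58, 6.60, 6.71 and 6.51 in controls and 6.94, 6.78, 6.96 and 6.83 in knockdown cells. Both genes were separated between groups, at 0.28 (SE 0.08) each, and stood at a limma adjusted p of 0.0538 for Ndufab1 and 0.0537 for Ndufb7 with the block. Ndufb10 read 6.49, 6.55, 6.60 and 6.47 in controls and 6.86, 6.65, 6.76 and 6.63 in knockdown cells, again without overlap, at 0.20 (SE 0.08). Ndufb9 read 7.23, 7.16, 7.25 and 7.00 in controls and 7.56, 7.28, 7.39 and 7.19 in knockdown cells, with overlapping groups. Its difference was 0.20 (SE 0.11), positive in each pair. Ndufb6, Ndufb4 and Ndufb3 differed by 0.19, 0.17 and 0.11.

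Ndufb2 was the other low member. The sign of its difference did not rest on 1 array, though the size drew most on knockdown replicate 3. Ndufb2 read 5.58, 5.54, 5.51 and 5.53 in controls and 5.47, 5.49, 5.27 and 5.48 in knockdown cells. All knockdown samples were below all controls, and the pair differences were -0.11, -0.05, -0.23 and -0.05. The difference of -0.11 (SE 0.08) did not pass limma without pairing (adjusted p = 0.661) or with it (adjusted p = 0.298). Its other probe gave -0.13, but the 2 probes share the 30 bases printed above and are not independent readings. Over all settings tried the difference lay between -0.15 and -0.06.

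Ndufb11 and Ndufb5 were near 0. Ndufb11 read 6.33, 6.58, 6.56 and 6.30 in controls and 6.50, 6.56, 6.57 and 6.38 in knockdown cells. Ndufb5 read 4.81, 4.86, 4.93 and 4.72 in controls and 4.93, 4.97, 4.92 and 4.82 in knockdown cells. The groups overlapped for both, at 0.06 (SE 0.10) and 0.08 (SE 0.08). Ndufa4, the gene placed with complex IV, differed by 0.19 (SE 0.12), by 0.32 and 0.36 in the first 2 pairs and by 0.03 and 0.06 in the others.

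**Figure D3:**
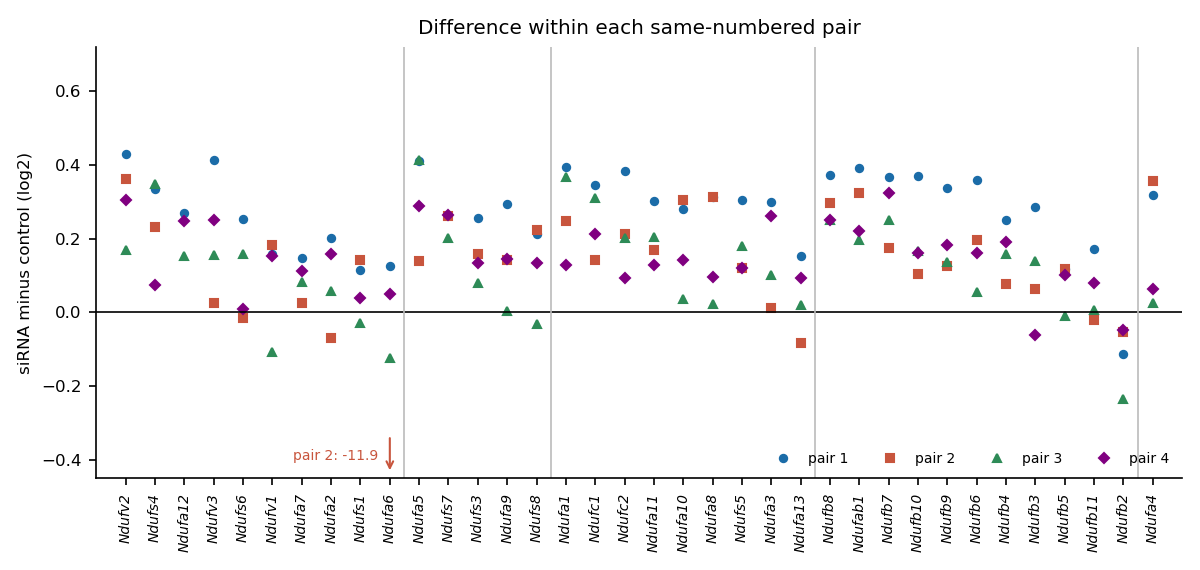
Difference within each same-numbered pair (log2, y axis) for the 36 members, grouped by module from N at the left through Q, proximal P and distal P to Ndufa4, with 1 symbol per pair. Points lie mostly above 0, Ndufb2 is below 0 in all 4 pairs, Ndufa6 in pair 2 is off the axis at -11.9, and Ndufa12 has no value in pair 2.

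Several members have more than 1 probe, and these did not always give the same sign. There were 11 second probes, over 9 genes, of which 5 read above 0. The brighter of them gave differences near those of the probe that stands for the gene: 0.17 for Ndufb4, whose probes share 37 bases, and 0.16 for Ndufb6. In 4 genes a second probe had the opposite sign. The second probe of Ndufa3 gave -0.04 at a mean level of -2.30, and that of Ndufb5 gave -0.03 at a level of 1.72. The spot of this Ndufb5 probe on knockdown replicate 2 lies in the dark area but read 2.35, its highest value on any array. The 2 second probes of Ndufv3 gave -0.07 at -2.27 and -0.01 at 1.09. One second probe of Ndufb11 gave -0.14 at -1.32, while another, which the files place on chromosome 5 and which shares 55 bases with the X chromosome probe that stands for the gene, gave 0.03. The second probe of Ndufab1, at a level of 0.89, kept the sign of the first and gave 0.37 (SE 0.25), the highest difference of any member probe. The mean of the kept probes gave Ndufb11 a difference of -0.02.

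**Figure D4:**
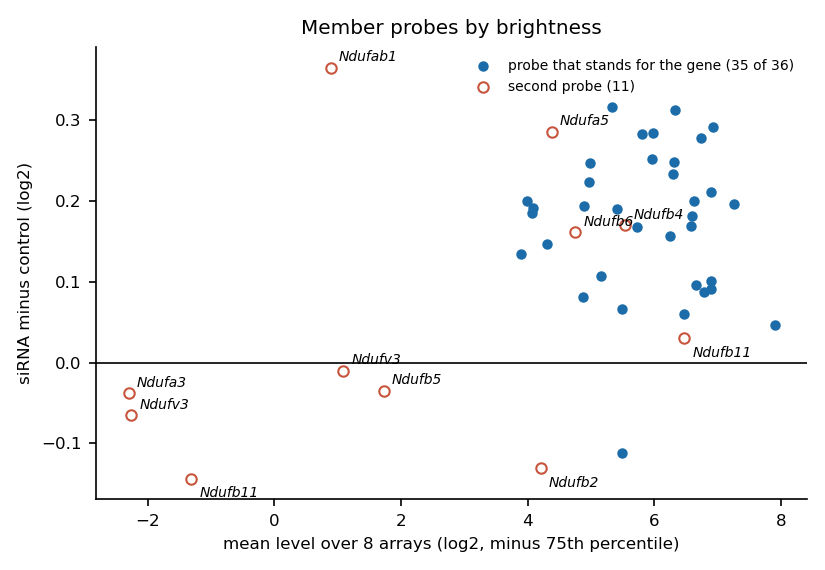
Difference (log2, y axis) against mean level over 8 arrays (log2 relative to the 75th percentile, x axis) for the member probes, Ndufa6 left off. Filled points are the probes that stand for genes and open points the 11 second probes, of which the dimmest, at levels of -2.30 to -1.32, read below 0. The x axis shows how bright a probe is, which is not a comparison of transcript amounts.

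The promoters of the members were searched for short motifs of factors known for nuclear respiratory genes, in RefSeq sequences of GRCm38.p6 from 250 bases before to 50 bases after each gene start, on both strands. Of the 36 members 33 had a sequence. The NRF1 motif GCGCATGC was found in 3 of 33 (9.09%), Ndufa6, Ndufa8 and Ndufa11, and in 3.05% of 27025 genes. The GABP or ETS motif CCGGAAG was found in 4 (12.1%), Ndufb6, Ndufb7, Ndufs3 and Ndufs8, against 9.93% of all genes, and the ERR motif TCAAGGTCA in 0 against 0.466%. No motif searched contains another. A match is a string of letters and not a measured binding site. For 2 members separated between groups 1 match is shown in capitals, in a stretch of 40 bases that ends at or before the gene start, at chr17:56717686-56717725 on the plus strand for Ndufa11, where a match on the other strand overlaps it, and chr8:83566718-83566757 on the plus strand for Ndufb7.
Ndufa11: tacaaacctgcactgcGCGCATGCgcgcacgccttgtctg
Ndufb7: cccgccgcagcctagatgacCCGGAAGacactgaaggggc

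Other genes of the pathway were taken from fixed lists. Of 16 measured assembly factors, which build the complex but do not stay in it, 13 read above 0, with a median of 0.06 and 0 rising. The 1 that fell with the block, where 3.87% of all genes fell, was Nubpl, which helps to insert iron-sulfur clusters into complex I. It read 1.41, 1.53, 1.24 and 1.75 in controls and 1.03, 1.19, 0.91 and 1.09 in knockdown cells. The groups did not overlap, and the difference of -0.43 (paired SE 0.08) had a limma adjusted p of 0.0387 with the block and 0.238 without it. The 7 subunits encoded by mitochondrial DNA all read above 0, with a median of 0.12 and 0 past the threshold either way. Their pair medians were 0.30, -0.16, 0.04 and 0.30, so pair 2 went the other way. The 2 of largest difference were mt-Nd2 at 0.25 (SE 0.15) and mt-Nd5 at 0.20 (SE 0.18), both membrane core subunits.

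The nuclear subunits of complexes II to V showed values close to those of complex I. Of 41 genes, 38 read above 0 and 28 were higher in all 4 pairs, against 50% and 19.4% of all genes. The median was 0.19, and 10 genes were separated upward, against 4.27% of all genes. Their median level by sample did not overlap between groups either, at -0.16 to -0.03 in controls and -0.01 to 0.17 in knockdown samples. Whether complex I differed from complexes II to V was not tested. With the block 2 of the 41 rose and 0 fell, against 4.1% and 3.87% of all genes. The 2 that rose were Uqcrc1 by 0.33 (paired SE 0.06, limma adjusted p = 0.0372) and Uqcr11 by 0.30 (paired SE 0.06, limma adjusted p = 0.0474), both of complex III. Without pairing 0 of the 41 passed.

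Markers of the differentiated cell moved in the same direction. All 12 myotube markers were measured on every array and all read above 0, with a median of 0.36. With the block 8 of 12 rose, against 4.1% of all genes, and without pairing 0 passed. Ckm, the muscle creatine kinase, rose by 0.41 (limma adjusted p = 0.0451 with the block and 0.422 without it), and Tnnc2, a fast troponin C, by 0.43 (limma adjusted p = 0.0364 with the block and 0.312 without it). The median marker level in a sample, taken as for complex I, was 0.10, -0.50, 0.07 and -0.28 in control replicates and 0.49, -0.11, 0.34 and 0.06 in knockdown replicates. These groups overlap, unlike those of complex I and of complexes II to V. Each pair differed by a similar amount (pair medians of 0.38, 0.38, 0.39 and 0.33). The part of this shift in the complex I values was not tested, and in bulk RNA a larger share of myotube RNA and more transcript per myotube cannot be told apart.

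Markers of other cells were less uniform. Of 9 measured markers of proliferating cells 0 passed, at a median of -0.04, and their sample levels ran from -1.22 to 1.15 in controls and from -1.12 to 1.29 in knockdown cells. Of 7 fibroblast markers 1 read above 0, at a median of -0.24. With the block 2 of the 7 fell, against 3.87% of all genes. These were Postn by 1.01 and Col1a2 by 0.40 (limma adjusted p = 0.0153 and 0.0445), and neither passed without pairing (limma adjusted p = 0.576 and 0.320). The fibroblast marker level by sample ran from -0.06 to 0.31 in controls and from -0.32 to 0.30 in knockdown cells. Of 6 adipocyte markers only Fabp4 had a probe kept, and it was well above background on 6 of 8 arrays, all 4 knockdown arrays and 2 controls. It read -4.55, -2.76, -2.97 and -5.22 in controls and -3.14, -2.15, -1.11 and -3.44 in knockdown cells, and since control replicates 1 and 4 were not well above background no exact rise is given. The other 5, the defining marker Adipoq among them, had no probe kept. Of 5 macrophage markers 0 passed, with a median of -0.04, Cd68 read 1.32 (limma adjusted p = 0.0903 with the block), and Ptprc had no probe kept. The part of these cell markers in the complex I values was not tested.

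**Figure D5:**
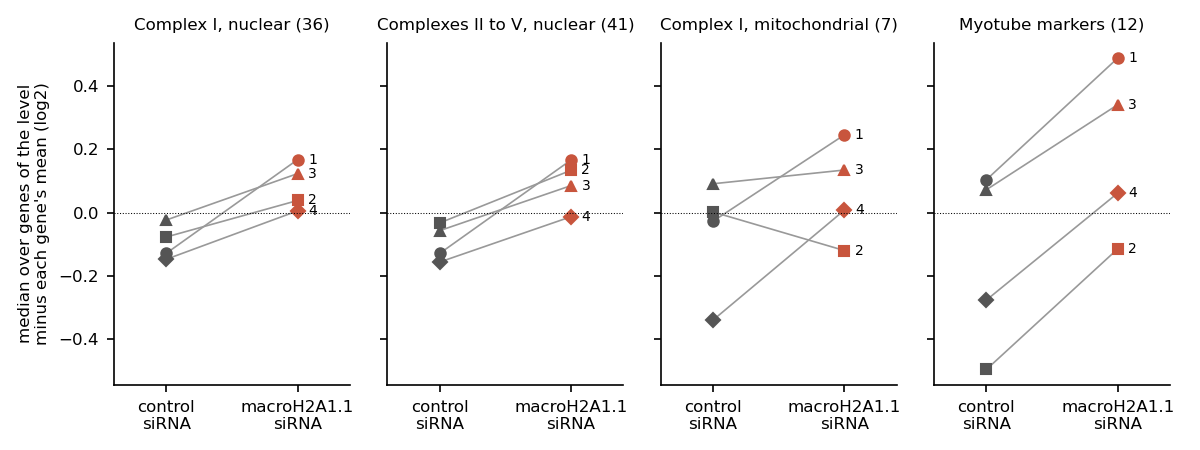
Level of 4 gene lists in each sample (y axis, log2, median over the genes of the level minus each gene's mean over all samples), for control siRNA and macroH2A1.1 siRNA, with lines joining same-numbered samples and numbers giving the replicate. Complex I nuclear genes run from -0.15 to -0.02 in controls and from 0.01 to 0.17 in knockdown samples. Those of complexes II to V are likewise separated, at -0.16 to -0.03 and -0.01 to 0.17, while the myotube markers overlap between groups.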

How the data were processed

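RNA of 8 C2C12 samples was hybridised to 8 arrays of 1 slide. Per the file headers, the deposited intensity values come from Agilent Feature Extraction 10.7.3.1, with probes placed on mm9, background subtracted and spatial trends removed within each array. The authors' series table holds log2 values with the same median, 6.29, on every array; its background handling is not given in the sources used here. Processed signals were taken as log2 minus the array's 75th percentile, outlier spots were set missing, spots of a probe were averaged, and a probe was kept if well above background on all 4 arrays of a group. The probe of highest mean stood for a gene. Old names were updated through RefSeq accessions or symbols (27467 probes by accession). A two-sided limma fit (version 3.58.1, R 4.3.3) compared the groups over 13785 genes, and figures and searches used Python 3.11.15. The code was tested on simulated data.

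Members and lists were chosen with earlier results of these data known. Named genes are members past the threshold, separated between groups, highest or lowest in level or difference, or with probes of opposite sign, and core subunits. From the other lists the genes past the threshold, or up to 2 of largest difference, are named; of myotube markers that rose only examples are given. Same-numbered samples deviated together from their group means (r = 0.61, 0.55, 0.66 and 0.41 over 13732 genes), so the numbers were used as pairs. Other numbers gave at most -0.04, but deviations from group means pull these below 0 on average once the same-numbered values are positive. Same-numbered samples also lay side by side on the slide, with controls in array columns 1 and 3, so position cannot be told apart from pair or group.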

Additional observations from a re-analysis of the deposited data

Results flagged for a closer look

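In 3 of 71 groups of 4 samples examined over the members, 1 sample stood far from the others, where chance alone sets 1 apart in about 1 of 20 groups. Ndufa6 in macroH2A1.1 siRNA replicate 2 read -6.29, with the other knockdown samples at 5.67 to 5.71. Ndufb3 in control replicate 1 read 5.05, with the other controls at 5.11 to 5.12. Ndufb2 in macroH2A1.1 siRNA replicate 3 read 5.27, with the others at 5.47 to 5.49.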

How the results depend on the processing

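Without pairing, 0 members passed in every alternative run. With the replicate block the count was 2, and it was 8 with normexp background correction, 3 with quantile normalization, 8 with the authors' series values and 0 with median centring, no filter, each probe alone, or any 1 pair left out. Added after the data were seen, the block gave 6 with probes well above background on all 8 arrays, 1 with the mean of the kept probes, 11 with a trended robust eBayes step and 4 with the dark area left out. Over all genes the block called 1099, but 0 without pair 1 or pair 3, 114 without pair 2, 574 without pair 4 and 0 without the filter. For the other runs the share over all genes is not given, so their member counts are not read as a result about complex I. The median difference kept its direction, from 0.13 to 0.21 over all settings and over leaving out each sample. Ndufa6 turned to 0.0258 without macroH2A1.1 siRNA replicate 2 or with the dark area left out, and to 0.0168 in the same settings with the block. Leaving out the other samples gave -3.98 to -2.92, and the other pairs -4.00 to -3.92. Ndufb11 turned to -0.0180 with the mean of the kept probes, with or without the block, since a dim second probe then counts. Other causes were not tested. Second probes of opposite sign limit what can be read from Ndufa3, Ndufb5, Ndufb11 and Ndufv3.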
